A study of Mus musculus with 116 samples.

Results

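CCT, also called TRiC, is the cytosolic chaperonin of eukaryotic cells. The 8 genes that encode its subunits, Tcp1 (alpha), Cct2 (beta), Cct3 (gamma), Cct4 (delta), Cct5 (epsilon), Cct6a (zeta), Cct7 (eta) and Cct8 (theta), were taken by symbol from 24028 symbols present in every deposited table. All 8 were found, with 1 row each. The series, which follows RNA polymerase II in mouse eggs and early embryos, holds 116 samples, of which the 7 RNA libraries were used and the other 109 not analysed here.

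CCT is built of a pair of stacked rings, each with 1 copy of every subunit, so the subunits are needed in equal number. It closes around newly made proteins and folds them with ATP. Actin and tubulin are its best known substrates, followed by WD-repeat proteins such as Cdc20, and prefoldin hands it unfinished chains. In the mouse zygote the genome is almost silent, maternal RNA is degraded, and major genome activation takes place at the late 2-cell stage.

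Each total RNA group was 1 library of about 100 wild-type oocytes or embryos, depleted of ribosomal RNA. Superovulated females were 8 weeks old, and all embryos came from C57BL/6N females crossed with PWK males. The late 2-cell DRB group, labelled mTBE and named DRB in the deposited column, came from zygotes taken 23 h after hCG, the ovulation signal. They were kept for 14 h in 60 uM DRB, which blocks elongation by RNA polymerase II, then released and cultured for 12 h. The late 2-cell control was handled in the same way with 0.1% DMSO. Early 2-cell embryos were taken 36 h, PN5 (late pronuclear) zygotes 30 h and MII (mature) oocytes 13 h after hCG. The 2 inner cell mass (ICM) libraries, taken at 98 h, were made with Smart-seq2 from polyadenylated RNA. Embryos were pooled, and the labels name no separate batches of animals.

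Levels are the authors' FPKM, a count of fragments scaled by transcript length and library size, so levels of different genes can be set side by side. PN5, DRB and control values stand in 1 table, and the other tables were normalized separately. A difference is given in log2(FPKM + 1), and a size of 1 or more, about 2-fold, counted as higher or lower. Genes at 1 FPKM or more in either library were counted as measured. With 1 library in each total RNA group there is no test and no replicate check, and read depth is unknown. Stage labels were checked with markers. The summed level of 6 transcripts of the 2-cell stage was 1.15 FPKM in MII, 10.2 in PN5, 25.0 in early 2-cell, 146 in late 2-cell DRB, 263 in late 2-cell control, and 0.0775 and 4.06 in the ICM libraries. The summed level of 5 oocyte transcripts was 1795 to 3333 FPKM in the total RNA libraries, against 11.1 and 31.7 in the ICM. Of 5 ICM markers, 1 was at least 2-fold higher in the ICM than in late 2-cell control embryos and 1 lower, with a median of -0.25. The higher one was Nanog, at 105 and 133 FPKM in the ICM and 1.84 in control, and the lower one was Sox2, at 5.25 and 2.85 FPKM in the ICM and 10.1 in control, both singled out after their values were seen. The low oocyte and 2-cell transcripts set these libraries apart from the earlier stages. They do not tell the ICM from other cells of the embryo at that time. Among the listed ICM markers only Nanog was higher at the 2-fold limit, so the ICM label is taken from the sample titles. Carry-over of other cells of the embryo was not tested. Of 20 cumulus and granulosa cell markers, 4 to 11 were listed at 0 in the total RNA libraries, with sums of 136 FPKM in DRB and 145 in control embryos, and their part in the results was not tested.

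The finding turns most on Cct6a, and on Cct3 and Tcp1, which differed most between DRB and control embryos. Their 250 bases before the annotated start are shown for this reason. The sequences are from RefSeq, build GRCm38.p6, each on the plus strand, written 5′ to 3′. For Cct6a (chr5:129787106-129787355) capitals mark CCAAT and TGACGT, for Cct3 (chr3:88296885-88297134) CCAAT and GCGCANG, and for Tcp1 (chr17:12916079-12916328) CCAAT and GGGCGG. A match on the other strand is printed as its reverse complement, so CCAAT reads ATTGG in Cct3.
Cct6a: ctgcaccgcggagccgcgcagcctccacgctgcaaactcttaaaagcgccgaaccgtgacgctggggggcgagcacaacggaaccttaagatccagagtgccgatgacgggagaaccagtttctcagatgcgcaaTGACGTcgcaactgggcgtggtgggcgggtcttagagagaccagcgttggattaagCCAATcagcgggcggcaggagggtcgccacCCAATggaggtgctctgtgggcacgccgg
Cct3: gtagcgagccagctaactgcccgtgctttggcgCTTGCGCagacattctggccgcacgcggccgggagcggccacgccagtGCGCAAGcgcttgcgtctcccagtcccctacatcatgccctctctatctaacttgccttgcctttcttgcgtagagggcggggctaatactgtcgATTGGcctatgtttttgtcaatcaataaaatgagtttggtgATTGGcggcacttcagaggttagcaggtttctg
Tcp1: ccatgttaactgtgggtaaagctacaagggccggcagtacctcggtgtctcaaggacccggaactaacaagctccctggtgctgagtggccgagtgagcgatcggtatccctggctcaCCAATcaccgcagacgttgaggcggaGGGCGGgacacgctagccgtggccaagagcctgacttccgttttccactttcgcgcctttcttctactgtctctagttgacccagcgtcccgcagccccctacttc

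Before the late 2-cell stage the subunits stood at very unequal levels, and Cct6a was nearly missing. Cct6a was at 0.612 FPKM in MII, 0.859 in PN5, 0.395 in early 2-cell, 14.6 in late 2-cell DRB, 34.8 in late 2-cell control, and 344 and 261 in the ICM libraries. It was below 1 FPKM in 3 libraries that come from 3 different tables, and the PN5 value shares its table with both late 2-cell values. Cct4 was the next lowest in all 3 of these libraries, and Cct7 came after it in MII and PN5. Cct4 was at 11.7 FPKM in MII, 15.1 in PN5, 4.55 in early 2-cell, 20.0 in late 2-cell DRB, 30.0 in late 2-cell control, and 462 and 489 in the ICM. Cct7 was at 14.9, 16.5, 21.9, 16.7, 28.6, 368 and 357 FPKM in the same order, which made it the only subunit with a higher value in early 2-cell embryos than in MII and PN5.

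The remaining subunits were abundant in the egg. Cct5 was at 109 FPKM in MII, 41.4 in PN5, 13.6 in early 2-cell, 14.2 in late 2-cell DRB, 23.2 in late 2-cell control, and 472 and 584 in the ICM. It thus passed from the highest of the 8 in MII to the lowest of the 8 in both late 2-cell libraries, and was again the highest in both ICM libraries. Cct3 was at 91.1, 84.0, 40.0, 26.1, 66.5, 386 and 279 FPKM in the same order of libraries, the highest of the 8 from PN5 to both late 2-cell libraries. Cct8 was at 56.1, 79.3, 16.6, 24.5, 42.6, 414 and 384 FPKM.
Cct2 was at 66.5 FPKM in MII, 68.4 in PN5, 21.1 in early 2-cell, 16.8 in late 2-cell DRB, 31.4 in late 2-cell control, and 306 and 302 in the ICM. Tcp1, whose product gave the family its older name TCP-1, was at 46.7, 35.2, 11.5, 16.4, 40.8, 346 and 310 FPKM in the same order. The plot of levels by library shows the 8 values drawn apart in the first 3 libraries and close together in the others.

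**Figure D1:**
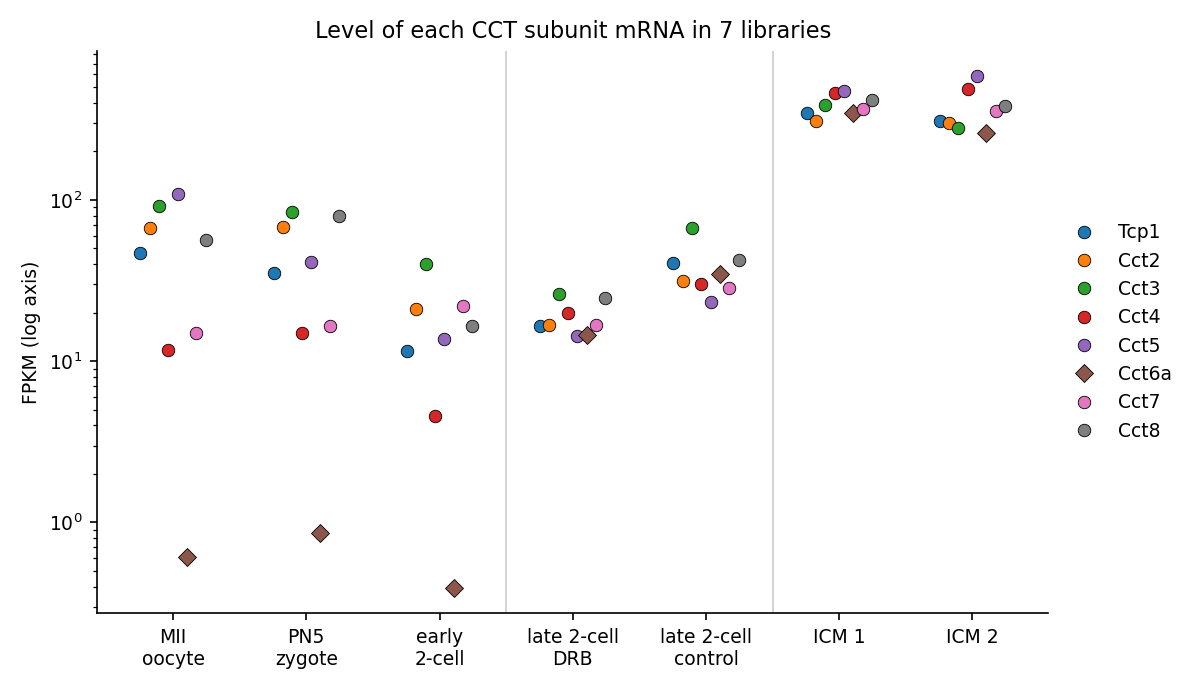
FPKM on a log axis for the 8 CCT subunits (points, Cct6a as a diamond) in each of the 7 libraries, which come from 4 separately normalized tables. Cct6a lies below 1 FPKM in MII, PN5 and early 2-cell and among the other subunits in the late 2-cell and ICM libraries.

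The balance among subunits within a library does not depend on how that library was scaled. The highest subunit stood 179 times above the lowest in MII, 97.8 times in PN5 and 101 times in early 2-cell embryos, but 1.83 times in late 2-cell DRB, 2.87 times in late 2-cell control, and 1.54 and 2.24 times in the ICM libraries. The SD of log2 FPKM among the 8 was 2.47 in MII, 2.18 in PN5, 2.08 in early 2-cell, 0.33 in late 2-cell DRB, 0.46 in late 2-cell control, and 0.22 and 0.41 in the ICM. Without Cct6a, a choice made after its values were seen, these SDs were 1.25, 1.03, 0.97, 0.32, 0.50, 0.22 and 0.39. The other 7 subunits thus also stood closer together in the late 2-cell and ICM libraries. For the ICM, made from polyadenylated RNA, stage and protocol cannot be told apart in this balance.

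Shares of the summed CCT FPKM show the same. Cct6a made up 0.154% of the sum in MII, 0.252% in PN5 and 0.304% in early 2-cell embryos, against 9.78% in late 2-cell DRB, 11.7% in late 2-cell control, and 11.1% and 8.81% in the ICM. Cct4 had a share of 2.94% in MII and 10.1% in late 2-cell control, and Cct5 had 27.6% and 7.79% in these libraries. In ICM replicate 1 the 8 shares ran between 9.89% for Cct2 and 15.2% for Cct5. The order in the ICM held only at its top: Cct5 was highest in both libraries, followed by Cct4 and Cct8, while Cct3 had rank 4 in replicate 1 and rank 7 in replicate 2. The values of Tcp1, Cct2, Cct3, Cct6a and Cct7 in the ICM differed between genes by no more than replicates differed for Cct3, so their order was not resolved.

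**Figure D2:**
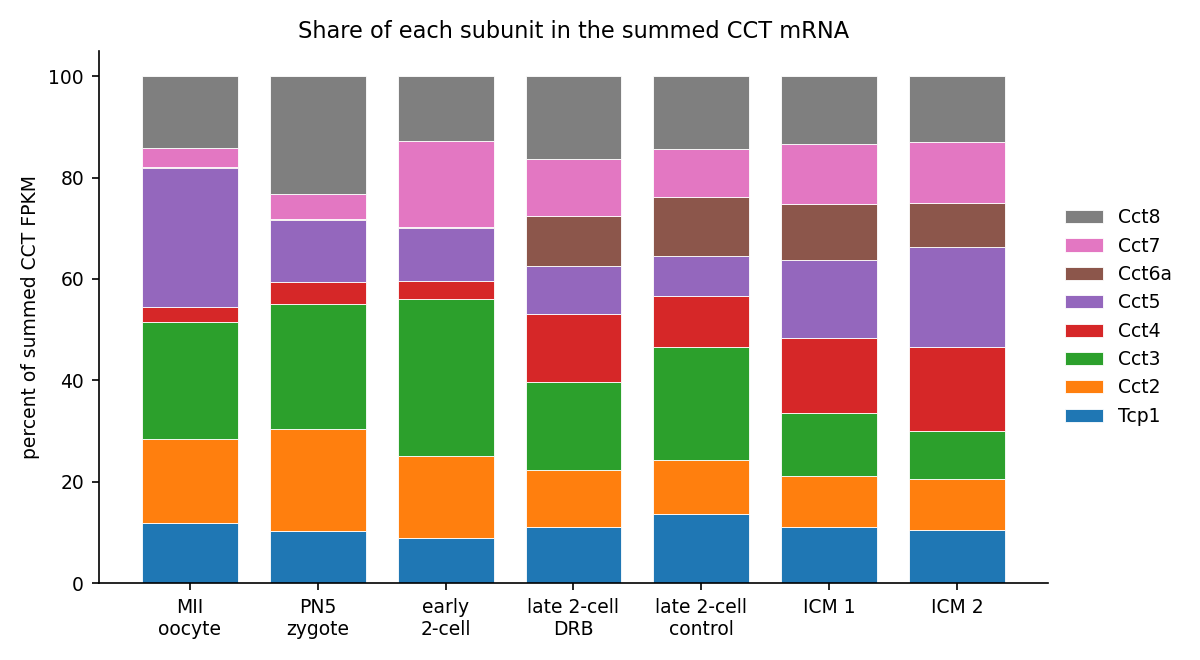
Percent of the summed CCT FPKM taken by each subunit, with 1 bar per library. The Cct6a segment is 0.154% to 0.304% of the bar in MII, PN5 and early 2-cell and 8.81% to 11.7% in the late 2-cell and ICM libraries.

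Evenness was set beside that of other multi-subunit assemblies, without a test, and the order differed between libraries. In late 2-cell control embryos the SD of log2 FPKM was 0.46 for CCT, 1.14 for the 6 prefoldin subunits and 1.54 for the 14 subunits of the 20S proteasome core. In late 2-cell DRB embryos it was 0.33 for CCT, 1.16 for prefoldin and 1.54 for the proteasome core. In MII oocytes it was 2.47, 0.96 and 0.89 in the same order of complexes, and in early 2-cell embryos 2.08, 1.72 and 1.32, so that CCT was the least even of the 3 in both. In PN5 it was 2.18 for CCT, 1.36 for prefoldin and 2.60 for the proteasome core. This order turned on Cct6a in part. Without Cct6a, left out after its values were seen, the SD for CCT was 1.25 in MII, still the highest of the 3. It was then 0.97 in early 2-cell and 1.03 in PN5, the lowest of the 3 in both. In the ICM the SD with all subunits was 0.22 and 0.41 for CCT, and 0.23 and 0.31 for prefoldin. For the proteasome core it was 1.15 and 1.37, in replicates 1 and 2. Single low values also occurred in the proteasome core: Psma5, chosen after its values were seen, was at 0.835 FPKM in PN5, 1.92 in late 2-cell DRB and 0.848 in late 2-cell control, while the MII table lists 32.4.

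Genes at levels like those of Cct6a were counted with limits set around its own values, so a small count was built in. Of all symbols, 12882 were below 1 FPKM in MII, PN5 and early 2-cell, 136 of these were at 10 FPKM or more in both late 2-cell libraries, and 18 of those were at 100 FPKM or more in both ICM libraries, a grouping chosen after the values were seen. Among the 18 were Cct6a, the metallothioneins Mt1 and Mt2, the adhesion molecule gene Epcam, the keratin gene Krt18 and Tomm5, which encodes a part of the mitochondrial import pore. Cct6b, the zeta copy known from testis, was listed at 0 in MII, was at 0.148 FPKM in PN5, listed at 0 in early 2-cell, and was at 2.29 in late 2-cell DRB, 3.89 in late 2-cell control, and 5.47 and 4.90 in the ICM. It was thus also at or near 0 before the late 2-cell stage.

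After the DRB block all 8 subunits were lower than in control embryos, and within a narrow range. Cct3 was at 26.1 FPKM in DRB and 66.5 in control embryos, a difference of -1.32 in log2(FPKM + 1). Tcp1 was at 16.4 FPKM in DRB and 40.8 in control embryos (-1.26), and Cct6a at 14.6 in DRB and 34.8 in control embryos (-1.20). These 3 were at least 2-fold lower. The other 5 lay between -0.86 and -0.56: Cct2 at -0.86, Cct8 at -0.77, Cct7 at -0.74, Cct5 at -0.67 and Cct4 at -0.56. At least 2-fold lower were thus 3 of 8 subunits (37.5%), against 9.99% of the 13726 genes measured, and 0 of 8 were at least 2-fold higher, against 5.57%.

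The median of the 8 was -0.82, with an SD of 0.29 among them, beside a median of -0.05 and an SD of 0.76 over all genes measured. The lower quartile of all genes was -0.51, and all 8 subunits lay below it. The summed CCT level was 149 FPKM in DRB and 298 FPKM in control embryos, or 50.2% of control. Each of the 8 differences was larger in size than the largest difference of a subunit between the 2 ICM replicates (0.47). This comparison and the one with the quartile were added after the values were seen. The ICM libraries were made with another protocol. Their subunits reached 261 to 584 FPKM in replicate 2, against 14.2 to 26.1 in DRB and 23.2 to 66.5 in control embryos. They therefore do not give the spread of total RNA libraries, and whether the DRB differences exceed that spread was not tested. With bulk RNA, fewer embryos at a given stage and less RNA per embryo cannot be told apart.

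**Figure D3:**
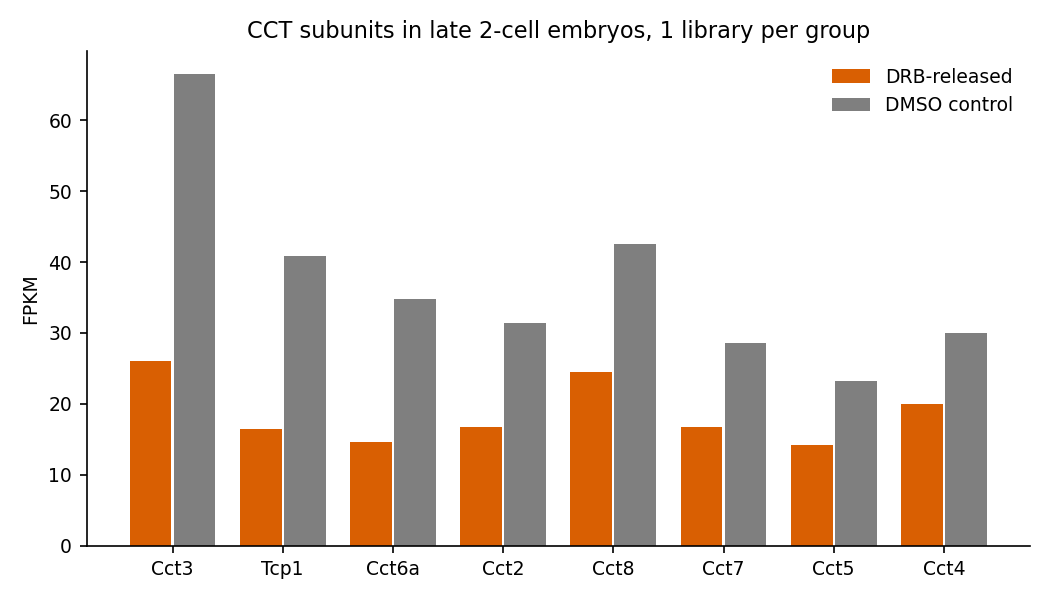
FPKM of each CCT subunit in late 2-cell DRB-released embryos (orange) and in late 2-cell DMSO control embryos (grey), 1 library each, ordered by the ratio of the bars. All 8 orange bars are below their grey neighbours, from 26.1 against 66.5 FPKM for Cct3 to 20.0 against 30.0 FPKM for Cct4.

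Genes that work with CCT did not all follow it. For the counts that follow, 9.99% of all genes measured were at least 2-fold lower in DRB embryos and 5.57% higher. Of the 6 prefoldin subunits 1 was at least 2-fold lower in DRB embryos and 0 higher, with a median of -0.20: Pfdn5 was at 28.5 FPKM in DRB and 34.5 in control, Vbp1 (prefoldin 3) at 24.6 and 23.8, Pfdn4 at 17.6 and 12.9, and Pfdn2 at 15.9 and 22.8. The lower one, Pfdn6, named after its values were seen, was at 8.30 FPKM in DRB and 21.0 in control. Of 3 phosducin-like cofactors 1, Pdcl2, was higher at 2.64 FPKM in DRB while listed at 0 in control, and 0 were lower. Pdcl, at 11.7 FPKM in DRB and 19.5 in control (-0.69), lay within the range of the CCT subunits, -1.32 to -0.56. Pdcl3 was at 7.51 FPKM in DRB and 7.99 in control (-0.08). Among 6 tubulin folding cofactors 1 was higher and 1 lower. Tbca, which holds beta-tubulin after its release from the chaperonin, was at 42.2 FPKM in DRB and 16.0 in control embryos, and Tbcb, which binds alpha-tubulin, at 8.90 and 19.3. Tbcc was at 12.8 FPKM in DRB and 23.7 in control (-0.84), and Arl2 at 2.70 and 1.43 (0.61). Tbcb (-1.03) and Tbcc thus lay within the range of the CCT subunits, and Tbca and Arl2 went the other way. The mitochondrial chaperonin, a different type made of Hspd1 and its lid Hspe1, was at 27.2 FPKM (Hspd1) in DRB and 22.0 in control, and at 13.4 (Hspe1) in DRB and 9.95 in control.

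Substrates differed among themselves. The 15 actin and tubulin genes had a median of -0.15, with 0 past the 2-fold limit in either direction. Tubb4b, the gene of the list with the highest control level, was at 57.0 FPKM in DRB and 110 in control embryos, and Tubb3 at 86.5 and 74.8. Of 14 WD-repeat and other substrates 4 were lower and 0 higher, against 9.99% and 5.57% of all genes measured. Cdc20, an activator of the anaphase-promoting complex, was at 19.1 FPKM in DRB and 68.6 in control, and Gnb1, a G protein beta subunit, at 118 and 111. Mkks, a relative of the CCT genes and one of 5 chaperonin-like genes, of which 4 were measured and 0 passed the 2-fold limit, was at 6.69 FPKM in DRB and 9.22 in control. In the 20S proteasome core 4 of 14 were lower and 0 higher, against the same shares of all genes, with a median of -0.36 and an SD of 0.69. A share of lower genes above that of all genes was thus not particular to CCT. Heat shock factor 1, the gene Hsf1, whose product is known to drive chaperone genes under stress, was at 135 FPKM in DRB and 132 in control embryos.

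Across genome activation the subunits did not move together. The comparison of late 2-cell control with PN5 lies within a single table, but PN5 zygotes had no DMSO culture, so stage and culture cannot be told apart. Cct6a was at 34.8 FPKM in control and 0.859 in PN5 embryos, a difference of 4.27 and a ratio of 40.6 in FPKM. Cct4 was at 30.0 in control and 15.1 in PN5 (0.95), and Cct7 at 28.6 in control and 16.5 in PN5 (0.75). Tcp1 at 0.21 and Cct3 at -0.33 differed least. Cct5 (-0.81), Cct8 (-0.88) and Cct2 (-1.10) were lower in control embryos, with Cct2 at 31.4 FPKM in control and 68.4 in PN5. At least 2-fold higher was 1 of 8, against 30.5% of 13022 genes measured, and at least 2-fold lower was 1 of 8, against 17% of genes (2 of 8 either way, against 47.5%). With the median ratio of genes at or above 5 FPKM set to 0, Cct2 was at -0.97 and Cct4 at 1.08, which made 2 of 8 higher and 0 lower, against 33.2% and 15.0% of genes, and the median of the 8 was then 0.064. The median of the 8 was -0.063 and the SD among them 1.75, or 0.82 without Cct6a, beside a median of 0.28 and an SD of 1.51 over all genes.

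Late 2-cell DRB embryos share PN5 with that comparison and control with the one before it, so the values are given side by side only. Against PN5, Cct6a was higher by 3.07 in DRB embryos, at 14.6 FPKM in DRB and 0.859 in PN5. Cct4 was at 0.39 and Cct7 at 0.016. The other 5 were at least 2-fold lower, from -1.05 for Tcp1 to -1.96 for Cct2, against 17.7% of 13489 genes measured. With the median ratio set to 0, Tcp1 was at -0.88, which left 4 of 8 lower, against 15.1% of genes. At least 2-fold higher was 1 of 8, against 29.4% of genes (6 of 8 either way, against 47.1%). Cct6a mRNA was therefore present after the block, at 42.0% of its control level.

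**Figure D4:**
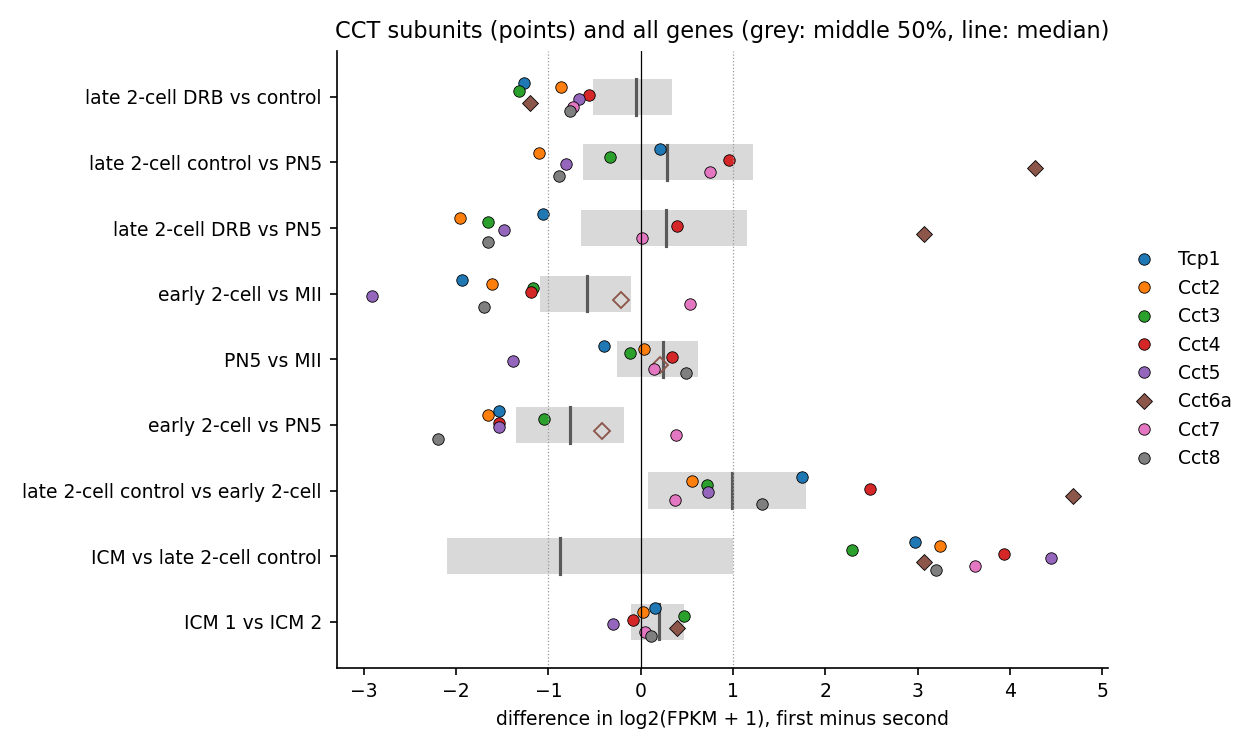
Difference in log2(FPKM + 1), first library minus second, of the 8 CCT subunits (coloured points, open where the gene was below 1 FPKM in both libraries) in 9 comparisons, with the middle 50% (grey bar) and median (line) of all genes measured. The subunits lie within a range of -1.32 to -0.56 for DRB against control and of -1.10 to 4.27 for control against PN5.

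Early 2-cell embryos had less of most subunits than MII oocytes. These tables were normalized separately, and the typical gene at or above 5 FPKM had a log2 ratio of -0.57. Of the 7 subunits that reached 1 FPKM in either library, 6 were at least 2-fold lower, against 28.8% of 10669 genes measured, and 0 were higher, against 3.98%. Cct5 was at 13.6 FPKM in early 2-cell and 109 in MII (-2.91), Tcp1 at 11.5 and 46.7 (-1.93), and Cct8 at 16.6 and 56.1 (-1.70). Cct7 went the other way, at 21.9 FPKM in early 2-cell and 14.9 in MII (0.53). The median was -1.61, and -1.06 once the median ratio was set to 0, which left 4 of 7 lower and 1, Cct7, higher, against 15.0% and 8.56% of genes on that scaling. Prefoldin (median -1.23, 4 of 6 lower) and the proteasome core (median -2.36, 12 of 14 lower) had lower values too.

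The steps between separately normalized tables add when these differences arose. Between PN5 and MII only Cct5 was at least 2-fold lower (-1.38), 1 of 7 subunits measured, against 9.23% of 10711 genes, and 0 were higher, against 8.77%. Cct8 was highest at 0.49. Between early 2-cell and PN5 6 of 7 were lower, against 39.2% of 10837 genes, and 0 higher, against 6.75% (6 of 7 either way, against 45.9%), with a median of -1.53. With the typical ratio likewise set to 0 that was 1 of 7 lower and 1 higher, against 16.0% and 14.3% of genes, so this step depends on the scaling. From early 2-cell to late 2-cell control the values were higher for all 8 as deposited, though Cct2 (-0.029) and Cct7 (-0.21) lay below 0 once the typical ratio was set to 0. At least 2-fold higher in control were 4 of 8 (Cct6a, Cct4, Tcp1 and Cct8), against 49.6% of 13126 genes, and 0 lower, against 8.62% (4 of 8 either way, against 58.2%). Cct8, at 1.31 as deposited, was at 0.72 once the typical ratio was set to 0 and at 0.63 with equal library sums, which left 3 of 8 higher, against 33.2% and 40.5% of genes. The median of 1.02 was close to that of all genes, 0.99.

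In the ICM every subunit was far higher than in late 2-cell control embryos. The differences ran from 2.29 for Cct3 (386 and 279 FPKM in the ICM, 66.5 in control) to 4.44 for Cct5 (472 and 584 in the ICM, 23.2 in control), with a median of 3.22 beside -0.88 over all genes. All 8 were at least 2-fold higher, against 25% of 13515 genes measured, and 0 lower, against 47.8%. The proteasome core (14 of 14 higher, median 5.02), prefoldin (6 of 6, median 2.42) and the mitochondrial chaperonin (2 of 2) were higher as well. The ICM libraries hold polyadenylated RNA and the others total RNA, so stage and protocol cannot be told apart. Between the 2 ICM replicates 0 of 8 subunits were at least 2-fold apart, against 5.11% of 9983 genes (2.79% higher and 2.31% lower in replicate 1), and the summed level was 3098 and 2966 FPKM.

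The genes most like the mean CCT course were sought by Euclidean distance between centred log2(FPKM + 1) profiles over the 5 total RNA libraries, among 7685 genes whose mean level was at or above 5 FPKM. The 6 closest were Lgmn, which encodes the protease legumain, Paf1 and Polr2g, which encode parts of an elongation complex and of RNA polymerase II, Cmtm6, Ddx10 and Polr3b, at distances of 0.094 to 0.23. Lgmn was at 27.5 FPKM in MII, 24.1 in PN5, 10.6 in early 2-cell, 16.5 in late 2-cell DRB and 31.6 in late 2-cell control. Over the 3 libraries of the shared table only 1 of these 6, Lgmn, was again among the 6 closest. Each subunit was also set against the mean of the other 7, which holds Cct6a for all but Cct6a itself. Tcp1 lay 0.73 from it, with 5.29% of genes closer, Cct8 1.17 with 24.7% closer, and Cct3 1.26 with 32.4% closer. Cct4 had 35.7% of genes closer, Cct7 49.5%, Cct2 54.4%, Cct5 77.2% and Cct6a 95.8%. Over the 3 libraries of the shared table the percent of genes closer ran from 7.78% for Tcp1 and 7.88% for Cct7 to 96.6% for Cct6a.

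Neighbouring genes were compared because several CCT genes share a promoter region with a gene that starts in the other direction, as RefSeq annotates. Psph, which encodes a phosphatase of serine synthesis and starts beside Cct6a, was at 0.383 FPKM in MII, 0.902 in PN5 and 1.24 in early 2-cell. It was at 3.92 in late 2-cell DRB, 0.892 in late 2-cell control, and 11.2 and 18.7 in the ICM libraries. Psph thus did not follow Cct6a in the late 2-cell libraries, but like Cct6a it was highest in the ICM. Mrpl18, a mitochondrial ribosomal protein gene that starts beside Tcp1, was at 49.6 FPKM in DRB and 49.9 in control embryos, whereas Tcp1 was at 16.4 in DRB and 40.8 in control. In the ICM libraries both were higher, with Mrpl18 at 294 and 322 FPKM and Tcp1 at 346 and 310. Pradc1, beside Cct7, was at 11.9 FPKM in DRB and 10.5 in control. Tsacc, beside Cct3, was at 0.933 in DRB and 0.974 in control, and Atpsckmt, beside Cct5 and listed as Fam173b, at 2.18 and 2.89. Usp16 overlaps the end of Cct8 and was at 72.7 FPKM in DRB and 85.6 in control. The other divergent neighbour, B130034C11Rik beside Cct8, was at 1.71 FPKM in DRB and listed at 0 in control. Sumf2, on the same strand within 1 kb of Cct6a, was at 1.16 FPKM in DRB and 3.57 in control, and so lower in DRB like Cct6a. Unlike Cct6a, it was at 6.10 in MII, 5.47 in PN5 and 3.59 in early 2-cell. Cmbl, which ends near the end of Cct5, was at 2.03 FPKM in DRB and 0.726 in control. Acat3, which overlaps Tcp1, was at 0.296 in DRB and listed at 0 in control. Whether strand was used in counting is not given in the sources used here, so reads from overlapping ends cannot be told apart.

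Snora15, a small nucleolar RNA gene inside Cct6a, was at 1.04 FPKM in MII, 171 in PN5, 1.24 in early 2-cell and 168 in late 2-cell control, and was listed at 0 in late 2-cell DRB and in both ICM libraries. Its course thus differed from that of the host in PN5, in late 2-cell DRB and in both ICM libraries. The ICM libraries hold polyadenylated RNA, and the FPKM of so small an RNA can rest on few fragments. Snora20, inside Tcp1, was listed at 0 in all 7 libraries. RefSeq names 16 pseudogene copies of 6 subunits, with 5 for Cct7 and 3 each for Cct3 and Cct6a, and none for Cct2 and Cct5. None of the 16 has a row in the tables, so reads shared with copies cannot be followed. Only copies that carry a subunit symbol in their own symbol or a synonym were sought. Single subunits, Cct2 and Cct5 included, are uncertain to that degree.

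Promoter windows of 300 bases, 250 before to 50 after each annotated start, were found for 7 of the 8 genes (9 windows, with 2 each for Cct2 and Cct5), and Cct4 had no entry. Motifs were searched on both strands. CCAAT, the box bound by NF-Y, was present in Cct3, Cct6a, Cct7 and Tcp1, in 4 of 9 windows, and in 37.4% of all 32851 windows. Its copies began 74 and 33 bases before the start in Cct3, 59 and 29 in Cct6a, and 132 in Tcp1, as the capitals in the sequences show. The GC box GGGCGG was in 8 of 9 windows, which cover all 7 genes, against 35.7% of all windows. The ETS site CCGGAAG was in 3 of 9 (Cct2, Cct8 and Tcp1) against 8.86%, and GCGCANG, the core of the NRF1 site, in 3 of 9 (Cct3 and both Cct5 windows) against 16.6%. TGACGT, the core of the cAMP response element, was in Cct6a only, 1 of 9, against 7.51%. Heat shock elements were searched as GAANNTTC, in 1 of 9 (Cct2) against 7.86%, and as TTCNNGAA, in 2 of 9 (Cct5 and Cct6a) against 8.52%. AAGATGG, the YY1 core, was in 1 of 9 against 6.34%, and TATAAA in 0 of 9 against 13.6%. These matches describe letters in a window and show no binding.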

How the data were processed

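RNA was measured in 7 libraries, which were grouped by their titles. The MII and early 2-cell tables were each deposited with 1 total RNA sample, which set their group. The MII table's column header is also the title of a genomic library of MII oocytes, so that header alone does not name the sample. The authors deposited FPKM per gene symbol in 4 tables. Cufflinks 2.1.1, TopHat2 2.1.1, CASAVA 1.8 and build mm9 appear in the submitters' processing notes, without a role for each. How multi-mapped reads were assigned is not given in the sources used here. Rows of a repeated symbol (495 to 497 in 3 tables) were summed, and columns without a sample numbered 0. Differences were taken in log2(FPKM + 1), on which the fold of a gene near 0 comes out too small, among genes at 1 FPKM or more in either library. The ICM value was the mean of both libraries on that scale. No test was run, since each total RNA group has 1 library. A model using the spread of the 2 ICM libraries, made with another protocol, was left out. At most 0.527% of genes below 0.3 FPKM shared a ratio between total RNA libraries, so depth could not be recovered. In the ICM pair 10.6% did, at a ratio of 2.11, with replicate 1 the deeper. The calculation was tested on simulated data. All 8 members were named, with up to 4 genes by mean level from each of 13 lists, the 6 closest profiles, and annotated neighbours. Members and lists were chosen with earlier results of these data known. Promoter sequences are from RefSeq, GRCm38.p6, which differs from the authors' build. Python 3.11.15, pandas 2.3.3 and matplotlib 3.10.9 were used.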

Additional observations from a re-analysis of the deposited data

How the results depend on the processing

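No paired analysis was possible because each total RNA group has 1 library. Alternatives were a pseudocount of 0.1 FPKM, a filter of 5 FPKM or none, median scaling (typical ratio of genes at or above 5 FPKM set to 1), sum scaling (library sums of 1000000), the first row of a symbol only, and leaving out Tcp1, an ICM replicate or, chosen after seeing the data, Cct6a. Without 1 ICM replicate the ICM median against control was 3.19 to 3.26, with 8 higher. For DRB against control, the subunit median and counts kept their direction and side of the 2-fold limit under the smaller pseudocount and both scalings. The median did so without Tcp1 and without Cct6a. Using the first row only could not change a subunit value, since each subunit has 1 row, and is no check on them. With median scaling, control against PN5 had a median of 0.064 with 2 subunits higher and 0 lower, early 2-cell against MII had 1 higher, PN5 against MII had a median of -0.28 (-0.26 with sum scaling), and the ICM pair had -0.074. Early 2-cell against PN5 had a median of -0.72 with median and -0.86 with sum scaling, each with 1 higher and 1 lower. Late 2-cell control against early 2-cell had a median of 0.44 with median scaling, 0.34 with sum scaling, and 0.72 without Tcp1 or without Cct6a. Without Cct6a the SD among subunits was 0.82 for control against PN5, 0.91 for DRB against PN5 and 0.76 for control against early 2-cell, and the SD of levels was 1.25 in MII, 1.03 in PN5 and 0.97 in early 2-cell. Among differences of single subunits under an alternative, 248 kept their sign and their side of the 2-fold limit and stayed within 1.5-fold. Of these, 69 came from the first row only, which could not differ. Another 22 moved, either by a change of sign from under the limit or by more than 1.5-fold on the same side. A further 18 dropped under the 2-fold limit, 4 passed it, and 0 of those past it reversed. Counts over all genes moved more. DRB against control had 765 higher and 1371 lower genes, with 245 higher at a filter of 5 FPKM, 1165 with sum scaling and 1432 with the smaller pseudocount, and higher genes made up 35.8% of those counted, or 18.4% at that filter. With that filter, control against PN5 had 2331 higher in place of 3970, and DRB against PN5 1818 in place of 3963 (46.2% of those counted in place of 62.4%). Early 2-cell against MII had 425 higher and 3075 lower (12.1% higher), 913 and 1597 with median scaling (36.4%), 935 higher with sum scaling (29.2%) and 173 with the filter. PN5 against MII had 939 and 989 (48.7%), 345 higher with median scaling (20.9%), and 558 and 1550 with sum scaling (26.5%). Early 2-cell against PN5 had 732 and 4243 (14.7%), 1548 and 1730 with median scaling (47.2%), 1545 and 2393 with sum scaling (39.2%), and 333 higher with the filter. Control against early 2-cell had 1132 lower, 1817 with median and 2360 with sum scaling, and higher genes made up 85.2%, 70.6% and 69.3% of those counted. ICM replicate 1 against 2 had 279 higher (164 to 688 over the alternatives) and 231 lower (126 to 395), with 54.7% higher, 36.3% with median and 69.4% with sum scaling. The cause of these shifts was not tested.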
